A study of Mus musculus with 24 samples.

Results

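The cytosolic ribosome is built from ribosomal RNAs and a set of proteins whose genes are named Rpl for the large subunit, Rps for the small subunit and Rplp for the stalk of the large subunit. Here these genes were taken as all non-control probes whose gene name began with Rpl, Rps or Rplp followed by a digit, plus Rpsa and Fau, without the Rps6k kinases and without names holding -ps. The brightest probe stood for each gene, which gave 86 genes of the 28149 gene names on the array, with 142 probes. They were 43 genes of the large subunit, 32 of the small subunit, 3 of the stalk, and 8 divergent copies or named partners of ribosomal protein genes. All 86 passed the filter on dim probes (Cy3 well above background on at least 3 arrays). Of these, 84 were well above background on all 24 arrays, and the 2 others, Rpl3l and Rpl39l, on 22 and 19.

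Total RNA from bone marrow of female mice aged 6 weeks was amplified and hybridised to Agilent mouse arrays in 2 colours. Cy3 held the sample and Cy5 the same reference pool throughout, marrow RNA of wild-type (WT) mice that had received oil, and dyes were never swapped. Values are log2(Cy3/Cy5), called log ratios here, so a positive value is higher in the sample than in the pool. The WT groups were mice 6 h after benzo[a]pyrene (BP, 2 arrays), 12 h after dimethylbenzanthracene (DMBA, 3 arrays) and 12 h after TCDD (3 arrays), and mice given oil (3 arrays). Mice without Cyp1b1 had been given DMBA for 12 h (2 arrays) or oil (2 arrays). Mice without Cyp1a1 had been given BP for 12 h (3 arrays) or oil (3 arrays), and double-null mice, without both genes, BP for 12 h (2 arrays) or oil (1 array). All mice were labelled C57BL/6j, the vehicle was olive oil, injections were intraperitoneal, and the protocol gives 1 dose, 50 mg/kg, for all treatments. According to the labels 9 were pooled per sample, without a word on what the 9 were, so p-values measure the spread between arrays of these pools. In several groups all arrays lay on 1 slide, and the spread within them leaves out differences between slides. The labels give no time after oil and nothing on how the null alleles were made.

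BP and DMBA are polycyclic aromatic hydrocarbons and TCDD is a dioxin. All of them bind the aryl hydrocarbon receptor, which switches on Cyp1a1 and Cyp1b1, whose enzymes oxidise BP and DMBA. Ribosomal protein mRNAs are among the most abundant in any cell. In mammals they carry a 5′ terminal oligopyrimidine tract, a run of C and U that starts at the first base and through which the growth kinase mTOR controls their translation. In marrow, dividing erythroid and progenitor cells need many ribosomes, and loss of one gene copy of RPS19, RPS26 or another of these genes causes Diamond-Blackfan anaemia in people.

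The bases around the annotated start of transcription are shown for genes that the results turn on, 15 on each side. Rps18, Rplp2 and Fau had the widest spread of group means. Rps9, Rpl18, Rps26, Rpsa and Rps19 were called in a comparison, and Rps27l is a divergent copy. Sequences are from RefSeq (GRCm38.p6), on the gene's own strand, and capitals mark the longest run of C and T.
Rps18: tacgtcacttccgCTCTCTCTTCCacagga
Rplp2: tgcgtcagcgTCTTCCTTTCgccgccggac
Fau: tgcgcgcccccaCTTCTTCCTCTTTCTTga
Rps9: accgccttgTCTCTCTTTgtctcgggcctg
Rpl18: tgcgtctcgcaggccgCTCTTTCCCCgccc
Rps26: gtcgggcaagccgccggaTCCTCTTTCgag
Rpsa: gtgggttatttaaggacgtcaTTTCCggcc
Rps19: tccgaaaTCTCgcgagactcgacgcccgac
Rps27l: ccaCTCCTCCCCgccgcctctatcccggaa

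These windows lie at chr17:33955651-33955680 on the minus strand (Rps18), chr7:141447636-141447665 on the plus strand (Rplp2), chr19:6057932-6057961 on the plus strand (Fau), chr7:3704026-3704055 on the plus strand (Rps9) and chr7:45718056-45718085 on the plus strand (Rpl18). Those of the other 4 lie at chr10:128626492-128626521 on the minus strand (Rps26), chr9:120127751-120127780 on the plus strand (Rpsa), chr7:24884577-24884606 on the plus strand (Rps19) and chr9:66946071-66946100 on the plus strand (Rps27l). The longest run was 16 bases in Fau and 4 in Rps19. A promoter entry was found for 65 of the 86 genes. A run of at least 8 bases, each C or T, stood in 26 of these 65 windows (40%), against 3943 of the 32851 windows in the table (12%). On the opposite strand the shares were 3.08% and 13.2%. A run is a description of these letters, not a measured start or tract.

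The arrays lay on 10 slides, and a slide of their own was taken up by each of WT TCDD, Cyp1b1-null DMBA, WT BP and the double-null arrays, so that slide cannot be told apart from those groups, or from the double-null genotype. Neither the Cyp1b1-null oil arrays (slide 7) nor the Cyp1a1-null oil arrays (slide 9) shared a slide with a WT oil array (slides 1, 2 and 3), so slide and genotype cannot be told apart there either. Of the WT oil arrays only replicate 2 shared its slide with another group, WT DMBA. The array labelled WT oil replicate 1 stood apart. Over the 11 measured liver genes its median log ratio was -2.88, against -0.11 and -0.26 on WT oil replicates 2 and 3 and between -0.09 and 0.11 on all other arrays. Over erythroid, B-lineage and neutrophil markers it was 2.85, 3.76 and 4.73, and over the ribosomal protein genes 1.45. Its Cy5 signals correlated with those of the other arrays at a median Spearman rho of 0.807, the lowest of the 24, against 0.835 for WT oil replicate 2 and 0.892 or more elsewhere. The 6 columns of the authors' deposited table that compare with WT oil could be solved for the array used as replicate 1, and the 6 solutions were 1 array, which correlated at r = -0.06 across features with the deposited replicate 1. Comparisons of the ribosomal protein genes are therefore given with and without that array. The Cyp1a1 probe was not well above background on any array of Cyp1a1-null or double-null mice. The Cyp1b1 probe was well above background on every Cyp1b1-null and double-null array, with log ratios of 0.06 to 1.57 there, against -0.06 to 0.57 on the WT oil arrays. Where it lies relative to the deleted part is not given, so it does not check the label.

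Ribosomal protein probes were so bright that many reached the ceiling of the scanner. A spot is called at the ceiling here if Feature Extraction marked it as saturated or its raw mean signal was at least 64000, the second rule because the 4 arrays of one slide, read with a later version of Feature Extraction, carried no Cy3 mark at all. Those 4 arrays were the 3 Cyp1a1-null oil arrays and Cyp1a1-null BP replicate 3, on slide 9. No WT oil array was read with that later version. In Cyp1a1-null oil against WT oil the version therefore cannot be told apart from genotype or slide. Of the 86 genes, 46 were at the ceiling in Cy5 on 12 or more arrays, 5 were so in Cy3, and 19 were at the ceiling in neither channel on any array. None of the 3 stalk genes was among those 19, which held 8 of the large subunit, 4 of the small subunit and 7 of the 8 copies and partners.

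The number at the ceiling differed between slides and groups. In Cy5, which held the same pool throughout, it was 45 and 44 genes on the WT BP arrays, 31 to 35 on the WT DMBA arrays and 42 to 44 on the WT TCDD arrays. It was 18 on both Cyp1b1-null DMBA arrays and 61 and 58 on the Cyp1b1-null oil arrays, 58, 60 and 65 on the Cyp1a1-null BP arrays and 65 or 66 on the Cyp1a1-null oil arrays, and 47 on both double-null BP arrays and 40 on the double-null oil array. On the WT oil arrays it was 3, 18 and 30. WT oil replicate 1 thus had the fewest genes at the Cy5 ceiling of the 24 arrays, and all null oil arrays had more than any WT oil array. The counts went with the slide within the Cyp1a1-null BP group, since its replicates 1 and 2 lay on slide 7 with the Cyp1b1-null oil arrays and its replicate 3 on slide 9 with the Cyp1a1-null oil arrays.

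**Figure D1:**
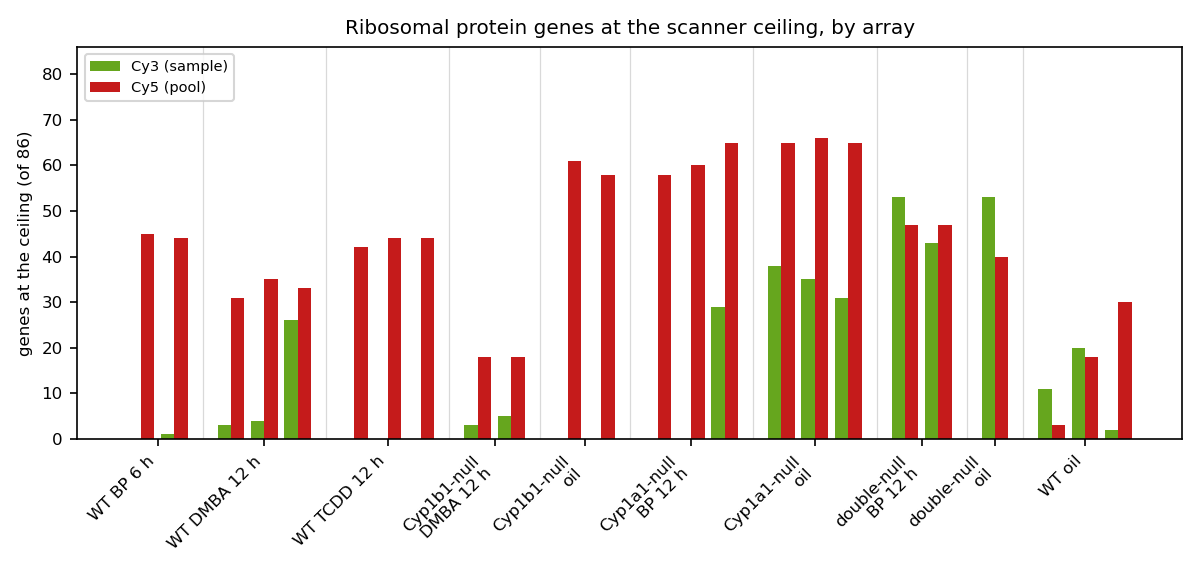
Number of the 86 ribosomal protein genes at the scanner ceiling on each array (y axis), in Cy3 (sample, green) and Cy5 (pool, red). Cy5 counts run from 3 on WT oil replicate 1 to 66 on a Cyp1a1-null oil array, and only the Cyp1a1-null arrays of one slide, the double-null arrays, WT DMBA replicate 3 and WT oil replicate 2 had 20 or more genes at the ceiling in Cy3.

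In Cy3 the count was 0 or 1 on WT BP, 3, 4 and 26 on WT DMBA, 0 on WT TCDD and Cyp1b1-null oil, and 3 and 5 on Cyp1b1-null DMBA arrays. It was 0, 0 and 29 on the Cyp1a1-null BP arrays, 31 to 38 on the Cyp1a1-null oil arrays, 53 and 43 on the double-null BP arrays and 53 on the double-null oil array, against 11, 20 and 2 on the WT oil arrays. Genes at the ceiling in both channels of an array shared almost 1 log ratio. On the first Cyp1a1-null oil array 38 such genes lay between 0.85 and 0.88, on the second 35 lay between 1.19 and 1.21, and on the double-null oil array 40 lay between -0.54 and -0.43. Their log ratio is not a measurement of their RNA, and no fold is given for them.

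The median log ratio of the 86 genes differed between arrays. It was -0.01 and 0.02 on the WT BP arrays, -0.08, -0.04 and -0.04 on WT DMBA, and 0.05, 0.07 and 0.10 on WT TCDD arrays. It was -0.33 and -0.51 on Cyp1b1-null DMBA, 0.36 and 0.41 on Cyp1b1-null oil, 0.30, 0.48 and 0.76 on Cyp1a1-null BP and 0.80, 0.89 and 0.76 on Cyp1a1-null oil arrays. It was -0.37 and -0.12 on double-null BP and -0.41 on double-null oil, against 1.45, -0.17 and -0.16 on WT oil arrays. Null oil arrays of both single-null genotypes were thus above WT oil replicates 2 and 3 and below replicate 1. Within the Cyp1a1-null BP group the medians lay near those of the other arrays of the same slide, 0.30 and 0.48 on slide 7 beside Cyp1b1-null oil and 0.76 on slide 9 beside Cyp1a1-null oil. The part of slide, or of the version of Feature Extraction, in these medians was not tested. Over the 19 genes never at the ceiling the medians of the Cyp1a1-null oil arrays were -0.48, -0.35 and -0.57, on the other side of 0, against 0.56, -0.05 and -0.15 on the WT oil arrays.

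**Figure D2:**
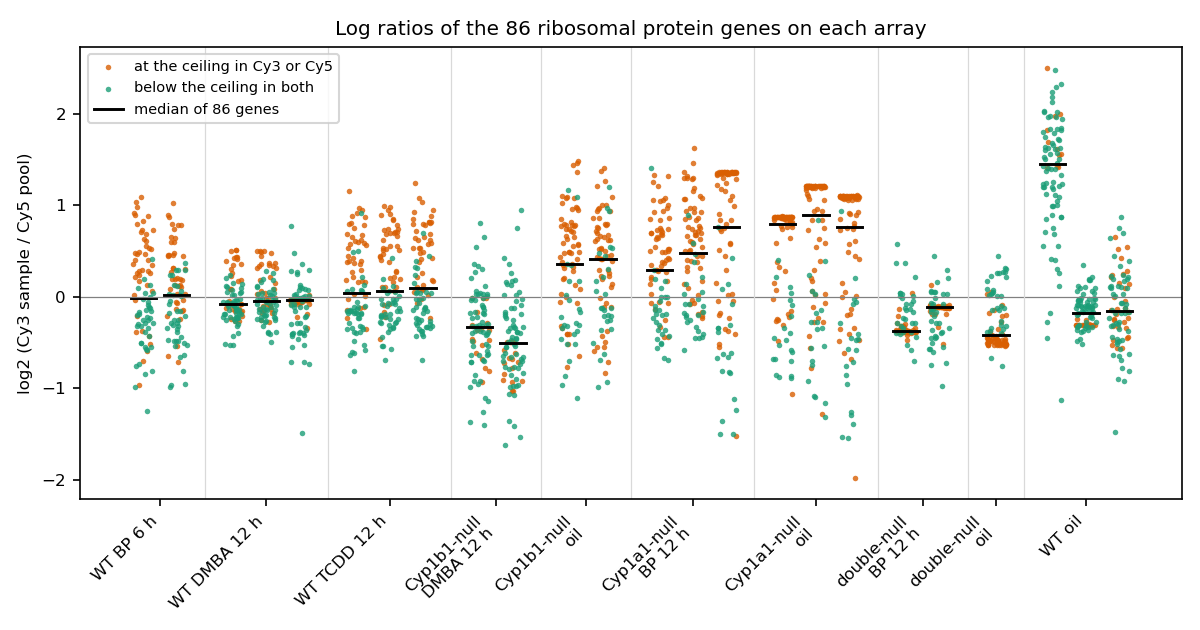
Log ratio, log2(Cy3 sample/Cy5 pool), of each of the 86 ribosomal protein genes on each array, in orange where the spot was at the ceiling in Cy3 or Cy5 on that array and in green where it was not; the black bar is the median of the 86 genes. The median runs from -0.51 on a Cyp1b1-null DMBA array to 1.45 on WT oil replicate 1, and on each Cyp1a1-null oil array 31 to 38 orange points, at the ceiling in both channels, form a narrow band.

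Genes differed in how far their group means lay apart. The SD of the 10 group means was largest for Rps18 (0.72), a protein of the head of the small subunit, for the stalk protein gene Rplp2 (0.70) and for Fau (0.70), which encodes a ubiquitin-like protein fused to eS30. Rps18 and Fau were at the Cy5 ceiling on 23 arrays and Rplp2 on 24. It was smallest for Rpl7l1 (0.11), a copy of Rpl7 with a role in making the large subunit, which was never at the ceiling, and for Rpl35a (0.18) and Rpl3l (0.20). The most variable genes were thus those whose Cy5 value was a ceiling.

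In Cyp1b1-null oil, set against WT oil, 13 of the 86 genes were called by limma at an adjusted p under 0.05 with all arrays, 2 higher and 11 lower. That share is near the background, since 15.4% of all genes were called, and the median change of the 86 genes was 0.07 (0.06 over all genes). Over 2054 other genes within the middle range of brightness of the 86, called other bright genes here, that median was -0.28. With slide as a random block (consensus correlation 0.82) limma called 0 of the 86 and 0% of all genes, with 18 at an unadjusted p under 0.05, and a fit of the compared groups only also called 0, with 8. Without either Cyp1b1-null oil array Rpsa alone was called. The 2 that rose were divergent copies, Rps27l and Rps4y2. Those that fell included Rpsa, Rps15, Rps26, Rpl4 and Rpl10a, which were never at the ceiling (Rps26 not called without WT oil replicate 1, -0.52, adjusted p = 0.0636), and Rps9, Rpl18, Rpl3, Rpl10 and Rpl13a, which were at the Cy5 ceiling on both Cyp1b1-null arrays. The copy Rpl3l fell as well (-0.40 ± 0.12, adjusted p = 0.0341; -0.28, adjusted p = 0.0639 without WT oil replicate 1), which is the paralogue of Rpl3 known from muscle.

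Rpsa encodes uS2 of the small subunit, also known as the laminin receptor precursor. Its log ratio was -0.96 and -0.99 in Cyp1b1-null oil, against 1.05, 0.19 and 0.39 in WT oil. The groups did not overlap, and Rpsa was 2.86-fold lower in Cyp1b1-null oil (log2 change -1.51 ± 0.20 SE, adjusted p = 0.000844; -1.26, adjusted p = 0.000211 without WT oil replicate 1). The channels moved unequally. Raw Cy5 of the probe was 62438 and 62911 on the Cyp1b1-null oil arrays, close to the ceiling, against 7362, 9554 and 12553 on the WT oil arrays, while raw Cy3 was 5730 and 7579, against 8320, 14903 and 13806. In Cy3 alone, with the 75th percentile of each array set equal, the change was -0.17 (adjusted p = 0.664). The brightness of the pool's channel moved with this call, and its part in it was not tested. A second Rpsa probe, never at the ceiling either, followed the first at r = 0.14 across the 24 arrays.

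Rps15, a protein of the head of the small subunit, had log ratios of -1.10 and -0.93 in Cyp1b1-null oil, against 0.56, -0.16 and -0.18 in WT oil. It was lower on both arrays than on any WT oil array (-1.09 ± 0.29, adjusted p = 0.021; -0.85 without WT oil replicate 1), but 0.29 in Cy3 alone. Rpl4, an early-binding protein of the large subunit, had -0.31 and -0.14 in Cyp1b1-null oil, against 1.38, 0.35 and 0.75 in WT oil (-1.05 ± 0.22, adjusted p = 0.0081; -0.77 without replicate 1; 0.11 in Cy3 alone). Rpl10a, which forms the L1 stalk, had -0.87 and -0.69, against 0.56, -0.32 and 0.70 (-1.09 ± 0.24, adjusted p = 0.0101; -0.97 without replicate 1; -0.25 in Cy3 alone). These calls were thus of log ratios, and in Cy3 alone neither Rps15, Rpl4 nor Rpl10a was called.

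Of the genes at the Cy5 ceiling, Rps9 fell by 1.32 ± 0.42 on the log2 scale (adjusted p = 0.0441) and by 0.59 without WT oil replicate 1, on which its log ratio was 2.30. Rpl18 fell by 1.08 ± 0.22 (adjusted p = 0.00682; by 0.78 without that array) and Rpl3, whose protein shapes the entry to the peptidyl transferase centre, by 1.06 ± 0.25 (adjusted p = 0.0126; by 0.73 without it). Rpl13a fell by 1.05 ± 0.30 (adjusted p = 0.0276) and by 0.58 without WT oil replicate 1 (adjusted p = 0.0112). Rpl13a, known also for a role in the interferon response, was the only one of these 13 genes that was also called in Cy3 alone (-1.05, adjusted p = 0.0107), where 7.6% of all genes were called. A Cy5 value at the ceiling is too low, which makes a log ratio too high, so these changes are measured against a bound.

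Leaving out WT oil replicate 1 turned the balance of the calls. Then 45 genes rose and 9 fell, among genes of which 29.6% were called, with a median of 0.57. Of the 61 genes at the ceiling on at least 1 array of the groups compared 41 rose and 5 fell (median 0.74), and of the 25 others 4 rose and 4 fell (median -0.28). Besides Rps27l and Rps4y2 the 4 risen genes below the ceiling were Rpl14 and Rpl21, both of the large subunit, chosen for mention after their values were seen. Rpl14 had log ratios of 1.17 and 0.98 in Cyp1b1-null oil, against 1.95, -0.03 and -0.47 in WT oil, so that replicate 1 alone lay above them (0.59 ± 0.48, adjusted p = 0.412; 1.32 ± 0.27, adjusted p = 0.00266 without it). Rpl21 had 1.09 and 1.20, against 1.56, 0.20 and -1.48 (1.05 ± 0.61, adjusted p = 0.247; 1.79 ± 0.49, adjusted p = 0.0126 without it). In Cy3 alone without that array Rpl14 was 0.98 higher (adjusted p = 0.0486) and Rpl21 0.73 higher (adjusted p = 0.134). Of the 61 genes at the ceiling 10 lay above 0 there (median -0.32), and of the 25 others 13 did (median 0.02). The second probe of Rpl21, never at the ceiling either, ran against the first (r = -0.34).

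In Cyp1a1-null oil, set against WT oil, 11 genes fell and none rose with all arrays, among genes of which 3.58% were called. The median of the 86 genes was 0.34 (0.02 over all genes, -0.36 over the other bright genes). With slide as a random block limma called 0 of the 86 and 0% of all genes, with 6 at an unadjusted p under 0.05, and a fit of the compared groups only called 0, with 15. Without Cyp1a1-null oil replicate 2 the count was 2, and without replicate 3 it was 1, Rpl24. Of the 11, 8 were never at the ceiling, out of 19 such genes, whose median was -0.85. Rps19, Rps26, Rps15 and Rpsa among them are small-subunit genes, and Rpl24, Rpl29, Rpl4 and Rpl10a are large-subunit genes.

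Rps19, needed to mature the small subunit, had log ratios of -0.87, -1.17 and -1.55 in Cyp1a1-null oil, against 0.99, -0.04 and 0.65 in WT oil. It was 3.31-fold lower (-1.73 ± 0.29, adjusted p = 0.00897; -1.50, adjusted p = 0.00871 without WT oil replicate 1). Rps26, at the mRNA exit of the small subunit, had -0.68, -1.09 and -1.26, against 1.09, -0.10 and -0.07 (2.49-fold lower, -1.31 ± 0.26, adjusted p = 0.0151; -0.92 without replicate 1). In both genes every Cyp1a1-null array lay below every WT oil array, and in Cy3 alone Rps26 was called (-1.02, adjusted p = 0.0224) and Rps19 was not (-0.998, adjusted p = 0.077).

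Rps15 had log ratios of -0.88, -1.32 and -1.54 in Cyp1a1-null oil, against the WT oil values above (-1.31 ± 0.26, adjusted p = 0.0162; -1.07 without WT oil replicate 1). Rpl24, which bridges the subunits, had -0.70, -0.75 and -0.85, against 0.69, -0.10 and 0.20 in WT oil (2.04-fold lower, -1.03 ± 0.15, adjusted p = 0.0039; -0.81 without WT oil replicate 1). It was called in Cy3 alone (-0.65, adjusted p = 0.0312), and its second probe followed the first at r = 0.92. Rpsa had -0.21, -0.34 and -0.59 in Cyp1a1-null oil (-0.92 ± 0.18, adjusted p = 0.0144), and Rpl4 had 0.11, -0.27 and -0.02 (-0.89 ± 0.20, adjusted p = 0.0274), with -0.10 and 0.34 in Cy3 alone. Rpl29 fell by 1.18 ± 0.27 (adjusted p = 0.0295; by 0.90 without WT oil replicate 1). Rpl37, at the ceiling on 1 array, fell by 1.14 ± 0.29 (adjusted p = 0.0441) and by 0.64 without WT oil replicate 1 (adjusted p = 0.0423). The second probe of Rpl37 followed the first at r = 0.02. Raw Cy5 of Rpsa was 53263, 60238 and 55603 on the Cyp1a1-null oil arrays and raw Cy3 was 25165, 20362 and 17073, both above the WT oil values given earlier.

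**Figure D3:**
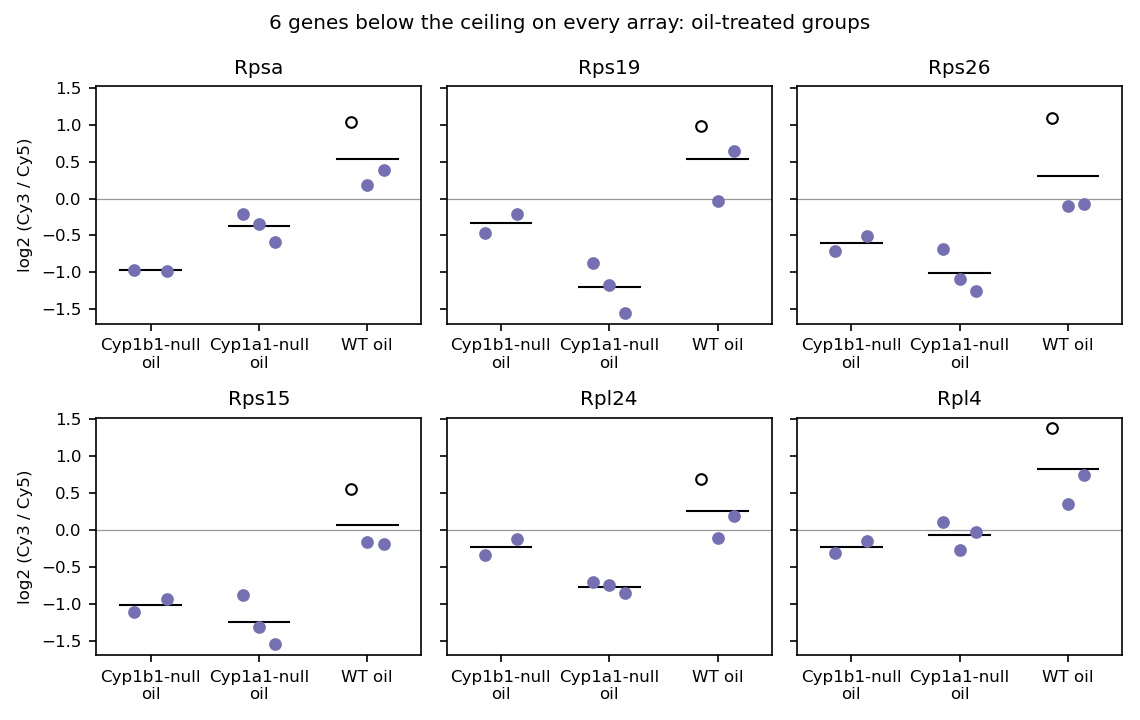
Log ratio, log2(Cy3/Cy5), of 6 genes never at the ceiling (Rpsa, Rps19, Rps26, Rps15, Rpl24, Rpl4) on the Cyp1b1-null oil, Cyp1a1-null oil and WT oil arrays; each point is an array, the open circle is WT oil replicate 1 and the bar is the mean of the group. Each gene has all 3 Cyp1a1-null points below all 3 WT oil points, and WT oil replicate 1 is the highest point in each panel.

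With WT oil replicate 1 left out, the Cyp1a1-null oil comparison had 51 genes risen and 11 fallen, among genes of which 7.59% were called, with a median of 0.91. All 51 risen genes were among the 66 at the ceiling on at least 1 array (median 1.10; 4 of them fell), and the 20 others held 0 risen and 7 fallen (median -0.37). Of the genes at the ceiling in both channels, whose log ratios coincided on each of these arrays, none has a measurable change. Without WT oil replicate 1, Cy3 alone had 12 of the 66 genes above 0 (median -0.34) and 7 of the 20 others (median -0.26). On the Cyp1a1-null oil arrays 31 to 38 genes were at the ceiling in Cy3. In Cy3 alone with all arrays the Cyp1a1-null oil comparison had 0 genes higher and 16 lower (4.61% of all genes called), and with Feature Extraction's processed signals 7 higher and 2 lower (0.204%). In the Cyp1b1-null oil comparison Cy3 alone gave 1 higher and 8 lower, processed signals 10 and 9 (13.5% of all genes called), and centring each array on its median in place of loess 0 and 45 (61.4%). That centring moved the median of all genes by up to 0.51 (log2) in a comparison, and Cy3 alone moved it by as much.

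BP at 6 h in WT marrow left Rpsa lower and called no other ribosomal protein gene, among genes of which 0.739% were called. Rpsa had log ratios of -0.58 and -0.16 after BP, against 1.05, 0.19 and 0.39 after oil (1.88-fold lower, -0.91 ± 0.20, adjusted p = 0.0423; -0.66, adjusted p = 0.0253 without WT oil replicate 1). In Cy3 alone the direction was the other (0.28, adjusted p = 0.505). With slide as a random block limma called 0 of the 86 and 0% of all genes, with 2 at an unadjusted p under 0.05. The median of the 86 genes was -0.32 (0.01 over all genes, -0.40 over the other bright genes). Both BP arrays lay below all oil arrays in 21 genes (11.7% of all genes). With WT oil replicate 1 left out, 13 genes rose and 1 fell, among genes of which 3.86% were called. The 13, which include Rps14, Rps16, Rplp1, Rplp2, Fau and Rpl41, were all among the 45 at the ceiling (median 0.53), and the 41 others had a median of -0.23.

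TCDD at 12 h left Rpl24 lower, and 2.13% of all genes were called. Rpl24 had log ratios of -0.61, -0.54 and -0.42 after TCDD, against 0.69, -0.10 and 0.20 after oil (1.73-fold lower, -0.79 ± 0.15, adjusted p = 0.0208; -0.57, adjusted p = 0.0173 without WT oil replicate 1). All TCDD arrays lay below all oil arrays, and Cy3 alone gave -0.29 (adjusted p = 0.264). The median of the 86 genes was -0.18 (0.03 over all genes, -0.34 over the other bright genes). With processed signals 8 genes were higher and 1 lower (3.21% of all genes called), with Cy3 alone 8 and 1 (13.4% of all genes called), and with centring in place of loess 0 and 48 (34.3%). The random block of slide called 0 of the 86 by limma, with 2 at an unadjusted p under 0.05, and 0% of all genes. When WT oil replicate 1 was left out, 29 genes rose and 2 fell, among genes of which 6.13% were called. The 29 were again all among the 45 at the ceiling (median 0.71), against a median of -0.12 in the other 41, which held the 2 that fell, Rpl24 and Rps9.

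DMBA at 12 h called no ribosomal protein gene and no gene at all (0% of 24505), with 9 of the 86 at an unadjusted p under 0.05 (12.3% of all genes). The lowest adjusted p was 0.4. Rpl4 stood at -0.69 ± 0.20, with log ratios of 0.10, 0.05 and 0.25 after DMBA, against 1.38, 0.35 and 0.75 after oil. Rps27l stood at 0.42 ± 0.14. Limma without WT oil replicate 1 again called 0 of the 86 genes, with 9 at an unadjusted p under 0.05 (8.98% of all genes), among genes of which 0.0979% were called. The median of the 86 genes was -0.43 with that array and 0.11 without it. With it the other bright genes had a median of -0.35. On the slide shared by 2 DMBA arrays and WT oil replicate 2, 2 genes were called higher (0.853% of all genes called), with a median of 0.05, and the lone oil array was there assumed to vary like the other groups.

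TCDD and DMBA were also set against each other at 12 h, which does not use the oil arrays for the difference. No ribosomal protein gene was called (limma; 11 at an unadjusted p under 0.05, as were 9.26% of all genes; 0.645% of all genes called). Rps27l came closest, with log ratios of -0.81, -0.69 and -0.24 after TCDD, against 0.08, 0.16 and -0.04 after DMBA (-0.65 ± 0.15, adjusted p = 0.0544). All TCDD arrays lay below all DMBA arrays. With the spread estimated without WT oil replicate 1, Rps27l (adjusted p = 0.0117), Rpl24 (-0.50, adjusted p = 0.011) and Rps9 (-0.44, adjusted p = 0.0276) were lower and 22 genes higher after TCDD, among genes of which 6.25% were called. Both Rps27l (-0.58, adjusted p = 0.0478) and Rpl24 (-0.49, adjusted p = 0.0355) were called in Cy3 alone, where 24.3% of all genes were. The 45 genes at the ceiling on at least 1 of these arrays held 21 of the 22 higher genes, and the remaining one was Rpl14 (0.86 ± 0.22, adjusted p = 0.0263), with log ratios of 0.92, 0.19 and 0.39 after TCDD, against -0.15, -0.20 and -0.74 after DMBA.

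**Figure D4:**
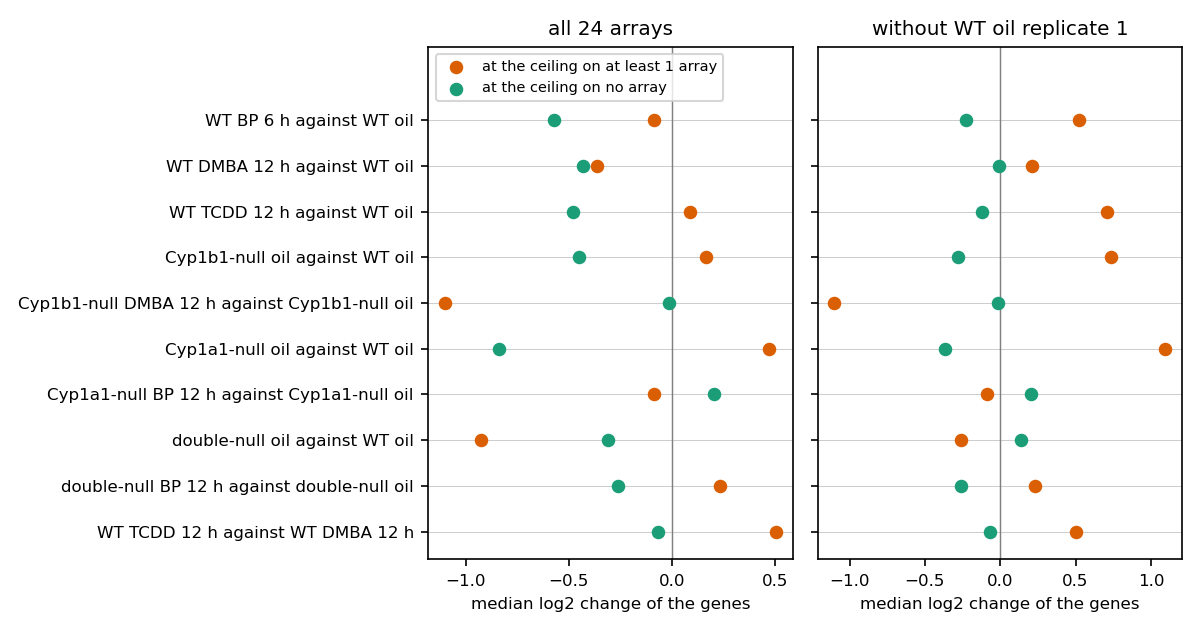
Median log2 change of the ribosomal protein genes in each comparison (rows, named as one group against the other), with all 24 arrays (left) and without WT oil replicate 1 (right), for genes at the ceiling on at least 1 array of the groups compared (orange) and for the others (green). Without WT oil replicate 1 the Cyp1a1-null oil medians are 1.10 and -0.37, and those of Cyp1b1-null DMBA against Cyp1b1-null oil are -1.10 and -0.02 in both panels.

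DMBA at 12 h in Cyp1b1-null marrow, against oil in the same genotype, had a median of -0.89 over the 86 genes. It was -0.01 over all genes and -0.06 over the other bright genes. With all arrays no ribosomal protein gene was called by limma, although 43 had an unadjusted p under 0.05 (14.6% of all genes), and 0.0245% of all genes were called. Rps18 had log ratios of -0.31 and -0.49 after DMBA, against 1.44 and 1.37 after oil (-1.80 ± 0.38, adjusted p = 0.0844). Rps14, near the mRNA channel of the small subunit, had -0.17 and -0.50, against 1.49 and 1.41 (-1.78 ± 0.40, adjusted p = 0.0916). In both genes Cy5 was at the ceiling on all 4 arrays, and on DMBA replicate 2 Cy3 was as well. Their log ratios there, -0.49 and -0.50, are not measurements, so neither change is a measured one. Cy3 alone gave the other direction (0.65 and 0.71, adjusted p = 0.739 and 0.729), with the Cy3 value of that array a lower bound.

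In this contrast WT oil replicate 1 enters through the spread alone. Without it 47 genes fell and 2 rose, among genes of which 7.46% were called. All 47 were among the 61 at the ceiling on at least 1 of these arrays (median -1.10), and the 25 others held the 2 that rose (median -0.02). Those 2 were Rpsa, with -0.42 and -0.19 after DMBA, against -0.96 and -0.99 after oil (0.67 ± 0.15, adjusted p = 0.0165), and Rpl24, with 0.31 and 0.36, against -0.34 and -0.13 (0.57 ± 0.13, adjusted p = 0.0183). In Cy3 alone they stood at -0.11 and -0.25. Of the 61, 58 lay above 0 in Cy3 alone without WT oil replicate 1 (median 0.71), and of the 25 others 11 did (median -0.12). Centring in place of loess gave 84 genes higher and 0 lower, with a median of 2.15 (0.51 over all genes), where 60.4% of all genes were called. The DMBA and oil groups differed in the number of genes at the Cy5 ceiling (18 on each DMBA array, 61 and 58 on the oil arrays), and slide cannot be told apart from treatment for the DMBA arrays.

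The DMBA response of Cyp1b1-null marrow minus that of WT marrow had no called ribosomal protein gene with all arrays (limma; 20 at an unadjusted p under 0.05, as were 11.8% of all genes; 0.00816% of all genes called), and a median of -0.41. Rpsa stood at 1.08 ± 0.28 (adjusted p = 0.184) and Rpl24 at 0.85 ± 0.24 (adjusted p = 0.204). Without WT oil replicate 1, 41 genes were lower and 1, Rpsa, was higher (0.83, adjusted p = 0.0414), among genes of which 3.05% were called. All 3 stalk genes, at the Cy5 ceiling on all 24 arrays, were among the 41. Over the 19 genes never at the ceiling the median with all arrays was 0.34, with 12 above 0 and 7 below. In Cyp1b1-null marrow each DMBA array had 18 genes at the Cy5 ceiling and the oil arrays 61 and 58. The part of the ceiling in these calls was not tested. Cy3 alone gave Rpsa and Rpl24 the other sign (-0.30 and -0.45).

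BP at 12 h in Cyp1a1-null marrow called none of the 86 genes (limma; 2 at an unadjusted p under 0.05, as were 15.1% of all genes; 0.0326% of all genes called), with a median of 0.02. Rpl10, the gene of uL16 at the heart of the large subunit, had log ratios of 0.03, -0.08 and -0.55 after BP, against -0.48, -0.56 and -0.62 after oil (0.35 ± 0.14, adjusted p = 0.261). Its Cy5 was at the ceiling on every array of both groups, so this change rests on Cy5 values that are too low. Rpl27a had 0.29, 0.47 and -0.34, against -0.03, -0.28 and -0.45 (0.39 ± 0.18, adjusted p = 0.3). In both genes the third BP array, which shared the slide of the oil arrays, lay among or near the oil arrays, and within that slide the changes were -0.0012 for Rpl10 and -0.09 for Rpl27a. Leaving out that array gave 4 genes higher and 1 lower, among genes of which 14.9% were called. With all Cyp1a1-null arrays but without WT oil replicate 1 the count was 0, with 18 at an unadjusted p under 0.05 (24.8% of all genes) and 0.155% of all genes called.

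In double-null marrow no ribosomal protein gene was called with all arrays. For oil against WT oil 21 genes had an unadjusted p under 0.05, as had 17.6% of all genes (limma; 1.61% of all genes called) and the median was -0.75 (0.04 over all genes), with 1 double-null array assumed to vary like the others. Over the other bright genes the median was -0.28. The ribosomal protein genes with the smallest p were Rpl22l1 and Rps21, whose Cy3 was at the ceiling on the double-null oil array, so no fold is given. Without WT oil replicate 1, Rpl36 (0.78, adjusted p = 0.0361) and Rpl3l (0.51, adjusted p = 0.0326) rose and none fell, among genes of which 6.12% were called. Rpl36 had 0.26 in double-null oil, against 0.71, -0.22 and -0.81 in WT oil, and was chosen for mention after its values were seen. For BP at 12 h against oil within the double-null genotype 1 gene had an unadjusted p under 0.05 (6.25% of all genes) and none was called (limma; 0.282% of all genes called), with a median of 0.18. Rpl3l stood at -0.43 ± 0.16 (adjusted p = 0.516). The fit without WT oil replicate 1 also called none by limma (5 at an unadjusted p under 0.05, as were 10.4% of all genes; 0.519% of all genes called).

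The stalk genes Rplp0, Rplp1 and Rplp2, whose proteins bring elongation factors to the ribosome, were at the Cy5 ceiling on all 24 arrays. Rplp2 had log ratios of 1.37 and 1.27 in Cyp1b1-null oil and -0.01 and -0.49 in Cyp1b1-null DMBA marrow, against 1.43, -0.31 and 0.24 in WT oil. Rpl5 and Rpl11, whose proteins bind 5S RNA and can hold Mdm2, were at the Cy5 ceiling on 20 arrays each. Rpl5 had 0.85 and 0.93 in Cyp1b1-null oil and 0.88, 1.20 and 1.10 in Cyp1a1-null oil, against 1.63, -0.11 and -0.47 in WT oil. The values given for single-null oil arrays lay between WT oil replicate 1 and the 2 other WT oil arrays. In Cyp1b1-null oil, with Cy5 alone at the ceiling, they rest on a Cy5 value that is too low. Rpl5 was at the ceiling in both channels on the Cyp1a1-null oil arrays. Rplp2 was so on the Cyp1b1-null DMBA arrays and on WT oil replicates 1 and 2. Those values are not measurements of RNA. Rps6, the target of the S6 kinases, was at the Cy5 ceiling on 12 arrays and had -0.32 and -0.37 in Cyp1b1-null oil and -1.36 and -1.53 in Cyp1b1-null DMBA marrow, against 1.25, -0.34 and -0.63 in WT oil.

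The probes of the divergent copies and partners were dimmer than those of most subunit genes on this array, and 7 of the 8 copies and partners were never at the ceiling. Rps27l, a copy of Rps27 that p53 is known to switch on, had log ratios of -0.81, -0.69 and -0.24 in WT TCDD and 0.08, 0.16 and -0.04 in WT DMBA marrow, against -0.45, -0.17 and -0.44 in WT oil. In Cyp1b1-null oil it had 0.17 and 0.30 and rose over WT oil (0.59 ± 0.16, adjusted p = 0.024; 0.54, adjusted p = 0.0272 without WT oil replicate 1), with -0.06 in Cy3 alone. Both Cyp1b1-null oil arrays lay above all WT oil arrays.

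Rps4y2, whose current symbol in RefSeq is Rps4l, showed the same order. It had 0.17 and 0.94 in Cyp1b1-null oil, against -1.13, -0.15 and -0.46 in WT oil (1.14 ± 0.33, adjusted p = 0.0304; 0.86, adjusted p = 0.0496 without replicate 1; 0.11 in Cy3 alone). Rpl22l1, the partner copy of Rpl22, had -0.52, -0.23 and -0.25 in WT TCDD and 0.24, 0.29 and 0.77 in WT DMBA marrow, against 1.79, 0.18 and 0.87 in WT oil, but its second probe ran against it (r = -0.21). Rpl36al, a copy of Rpl36a, had -0.85, -0.93 and -1.40 in Cyp1a1-null oil, against 0.41, -0.10 and -0.65 in WT oil (-0.95 ± 0.27, adjusted p = 0.0629; -0.68, adjusted p = 0.123 without WT oil replicate 1). Over the 8 copies and partners the median change was -0.02 in Cyp1b1-null oil and -0.26 in Cyp1a1-null oil, against 0.06 and 0.35 over the large subunit, 0.01 and 0.42 over the small subunit and 0.86 and 0.61 over the stalk, all with all arrays. Without WT oil replicate 1 these medians were -0.03 and -0.17 over the copies and partners, against 0.50 and 0.79 over the large subunit, 0.66 and 1.10 over the small subunit and 1.35 and 1.10 over the stalk. The test of a difference between these groups of genes was not run.

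**Figure D5:**
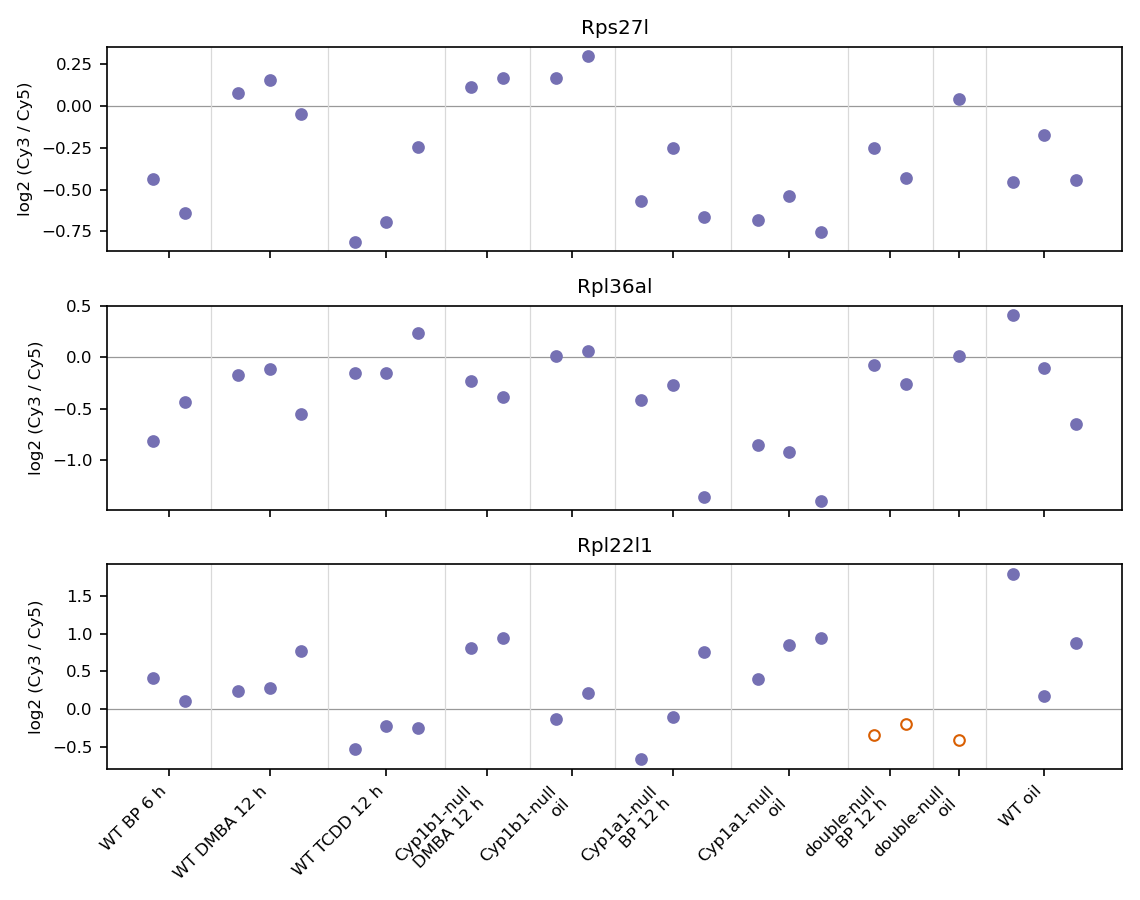
Log ratio, log2(Cy3/Cy5), of the divergent copies Rps27l, Rpl36al and Rpl22l1 on each of the 24 arrays, grouped by genotype and treatment; open orange points were at the ceiling in Cy3 or Cy5. Rps27l lies between -0.81 and -0.24 on the WT TCDD arrays and between -0.04 and 0.16 on the WT DMBA arrays.

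For 43 genes other probes were on the array, 56 in all. The log ratios of these probes followed the brightest probe of the gene at a median r of 0.27 across the 24 arrays, with 17 above 0.8, 23 below 0.2 and a range of -0.57 to 0.99. Of the 56, 36 were never at the ceiling. Where a brightest probe that was never at the ceiling was used for each gene that has one, the sign of Rpl37 in Cyp1a1-null oil turned (0.03). Many ribosomal protein genes have processed pseudogenes, and whether a probe also bound RNA of such a copy was not tested.

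Other genes of translation were read beside them, first with all arrays. Of 24 measured non-ribosomal genes with a terminal oligopyrimidine tract or a role in elongation and initiation, 5 fell in Cyp1b1-null oil, Eif3f (-1.39 ± 0.13, adjusted p = 0.000167), Eif3e, Eif3h and Eef1g, parts of an initiation and an elongation factor, and Nap1l1, a histone chaperone. Of 37 ribosome biogenesis genes 6 fell in Cyp1b1-null oil, among them Tsr1 (-0.98 ± 0.20, adjusted p = 0.0063), and of 76 mitochondrial ribosomal protein genes 11 rose and 2 fell there, with a median of 0.19. These shares lay near the 15.4% of all genes called in that comparison. In Cyp1a1-null oil Eef1a1 (1.10 ± 0.20, adjusted p = 0.0117), an elongation factor, was among those that rose, and Btf3 fell (-0.95 ± 0.25, adjusted p = 0.0481), while 1 biogenesis gene rose and 2 fell and 1 mitochondrial gene fell (3.58% of all genes called). After TCDD Nap1l1 fell (-0.76 ± 0.16, adjusted p = 0.0255), 1 biogenesis gene rose and 1 mitochondrial gene fell (2.13% of all genes called), and after BP 3 biogenesis and 2 mitochondrial genes fell (0.739%). None of the 4 measured Rps6k kinases was called by limma in any comparison with all arrays.

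Leaving out WT oil replicate 1 changed these counts too. In Cyp1b1-null oil 4 translation genes rose and 4 fell, 2 biogenesis genes rose and 10 fell, and 15 mitochondrial ribosomal protein genes rose and 13 fell, where 29.6% of all genes were called. Eif3f (-1.29) and Tsr1 (-1.10) were still called there, and Eif3e and Eef1g were not (adjusted p = 0.0922 and 0.0849). In Cyp1a1-null oil 6 translation genes rose and 1, Btf3, fell, and 1 biogenesis gene rose and 4 fell, while 9 mitochondrial genes fell (7.59% of all genes called). After BP 4 biogenesis and 9 mitochondrial genes fell (3.86%), and 1 Rps6k kinase fell in each single-null oil comparison.

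Markers of marrow cells moved with the same array. Against WT oil with all arrays the median change of the 14 erythroid markers ran from -1.48 (Cyp1b1-null oil, 3 fell) to -0.53 (Cyp1a1-null oil, 0 called). That of the 13 B-lineage markers ran from -1.93 (double-null oil) to -1.25 (Cyp1a1-null oil), and in Cyp1b1-null oil 6 of them fell and 1 rose. The 13 neutrophil markers had medians of -1.99 to -0.95 with none called. Of the 9 monocyte and macrophage markers 3 rose and 1 fell in each single-null oil comparison. Of all genes 15.4% were called in Cyp1b1-null oil, 3.58% in Cyp1a1-null oil and 1.61% in double-null oil. Without WT oil replicate 1 the erythroid medians ran from -0.36 (Cyp1b1-null oil, 1 rose and 4 fell) to 0.22 (WT TCDD, 2 rose), and the B-lineage medians from -1.14 (double-null oil, 1 rose and 5 fell) to -0.09 (WT BP), with 2 risen and 5 fallen in Cyp1b1-null oil. The neutrophil medians were then 0.63 in Cyp1b1-null oil (4 rose, 1 fell) and 0.70 in Cyp1a1-null oil (4 rose), and of the monocyte and macrophage markers 3 rose and 1 fell in Cyp1b1-null oil and 1 rose in Cyp1a1-null oil. Without that array 29.6% (Cyp1b1-null oil), 7.59% (Cyp1a1-null oil), 6.13% (WT TCDD) and 6.12% (double-null oil) of all genes were called. On the other 23 arrays the median log ratio of the erythroid markers lay between -0.48 (a Cyp1b1-null oil array) and 0.34 (a WT BP array). In these bulk samples fewer cells of a type and less RNA per cell cannot be told apart, and the part of cell composition in the ribosomal protein values was not tested.

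In the authors' deposited table the median over the ribosomal protein genes was 0.45 for Cyp1b1-null oil and 0.88 for Cyp1a1-null oil, each against WT oil, with 61 genes above 0 and 24 below in both. It was 0.05 for BP, 0.08 for DMBA, 0.25 for TCDD and -0.38 for double-null oil. Rpsa stood in the authors' deposited table at -1.09 in Cyp1b1-null oil, Rps19 at -1.52 and Rps26 at -0.94 in Cyp1a1-null oil, and Rpl24 at -0.61 after TCDD. These are the authors' values with no error of their own, made with the array that could be solved from the table, on which the median of the 86 genes was 0.04 in log2 units of Feature Extraction's LogRatio, against 0.64 on the deposited WT oil replicate 1.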

How the data were processed

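The measured values were spot intensity readings of both dyes with local background, deposited per array as Feature Extraction 9.1.3.1 or 10.7.3.1 wrote them, per the file headers, unscaled between arrays. The same deposited files hold flags, processed signals and LogRatio, the log10 of red over green, per the file headers. In the authors' deposited table each column is a comparison, with log2 values. Set against the arrays' LogRatio, as differences of group means of log2(Cy3/Cy5), 3 columns correlated at r = 0.99999 at the lowest and the 6 against WT oil at 0.42 to 0.81. The submitters' processing notes name limma, with a version not given in the sources used here.

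Intensities were analysed in R 4.3.3 with limma 3.58.1, data.table (version 1.17.8) and statmod 1.5.0. Normexp (offset 50) corrected the background and loess normalized each array. Control and outlier-flagged spots were left out, spots of the same probe were averaged, and a gene needed Cy3 well above background on at least 3 arrays. Of 3 annotation versions in the files the newest named the probes. A linear model with 10 group means covered 24 arrays and 24505 genes, p-values were adjusted by Benjamini-Hochberg over all of them, and "called" means an adjusted p under 0.05. Errors after ± are standard errors. The fit was also run on simulated data with independent noise on each array and neither slide effects nor a ceiling, so it cannot show what those do. Precision is limited by how many arrays a group has. Genes named per comparison are up to 8 called genes in each direction whose arrays do not overlap, or the 2 with the smallest p where none was called, besides genes listed for their role. The members and lists were chosen with earlier results of these data known. The closing section gives the alternatives. A result on a gene of the translation list is not reported here.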

Additional observations from a re-analysis of the deposited data

How the results depend on the processing

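Over 11 comparisons the count of called ribosomal protein genes stayed within 1.5 times the reported one in 169 alternative fits and left that range in 109, and of the named genes 25 of the alternative values had the other sign. The number of arrays, 1 to 3 a group, and the ceiling of bright spots limit these counts, and the cause of a change was not tested. A count below without a share of all genes called beside it shows only how the count moved. It is not a result about these genes. Settings that combine another choice with leaving out WT oil replicate 1, those with normexp signals of Cy3, the solved oil array or probes never at the ceiling, and slide as a fixed term or within slide were chosen after seeing the data.

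The counts called were 0 (BP), 2 (TCDD), 5 (Cyp1a1-null oil) and 1 (TCDD against DMBA) with no background subtraction. With Feature Extraction's processed signals they were 0 (BP) and 9 (TCDD, with 3.21% of all genes called). With median centring in place of loess they were 0 (BP), 48 (TCDD), 45 (Cyp1b1-null oil), 84 (Cyp1b1-null DMBA), 1 (Cyp1a1-null oil), 30 (TCDD against DMBA) and 69 (difference of the DMBA responses). Centring called 34.3% (TCDD), 61.4% (Cyp1b1-null oil) and 60.4% (Cyp1b1-null DMBA) of all genes. With Cy3 alone they were 0 (BP), 9 (TCDD, with 13.4% of all genes called) and 10 (TCDD against DMBA, 4 higher and 6 lower, with 24.3%). With Cy3 from normexp signals they were 0 (BP), 32 (TCDD), 2 (Cyp1b1-null oil), 0 (Cyp1a1-null oil), 38 (TCDD against DMBA) and 3 (difference of responses). The mean over the probes of a gene gave 0 (BP) and 1 (double-null oil), the brightest probe never at the ceiling 2 (BP) and 2 (TCDD), and spots at the ceiling set to missing 8 (Cyp1b1-null oil). Slide as a random block, with a consensus correlation of 0.82, gave 0 for BP, TCDD, Cyp1b1-null oil and Cyp1a1-null oil, and slide as a fixed term or within the slide gave 2 for DMBA. A fit of the compared groups only gave 0 for BP, TCDD, Cyp1b1-null oil and Cyp1a1-null oil, 63 for Cyp1b1-null DMBA and 29 for TCDD against DMBA.

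With WT oil replicate 1 left out as well, slide as a random block gave 0 (BP), 0 (TCDD), 45 (Cyp1b1-null oil), 25 (Cyp1b1-null DMBA), 18 (Cyp1a1-null oil) and 25 (difference of responses). Processed signals then gave 3 (BP), 29 (TCDD), 48 (Cyp1b1-null oil), 27 (Cyp1b1-null DMBA), 41 (Cyp1a1-null oil), 19 (TCDD against DMBA) and 18 (difference of responses), and LogRatio the same counts but for 20 in the last. Cy3 alone then gave 0 (BP), 12 (TCDD), 7 (Cyp1a1-null oil), 1 (double-null oil) and 12 (TCDD against DMBA), and Cy3 from normexp signals 0 (BP), 18 (TCDD), 2 (Cyp1b1-null oil), 0 (Cyp1a1-null oil) and 41 (TCDD against DMBA). Spots at the ceiling set to missing then gave 2 (TCDD), 3 (Cyp1b1-null DMBA), 7 (Cyp1a1-null oil), 1 (double-null oil), 4 (TCDD against DMBA) and 2 (difference of responses). The oil array solved from the authors' deposited table gave 7 (BP), 39 (TCDD), 49 (Cyp1b1-null oil), 31 (Cyp1b1-null DMBA), 56 (Cyp1a1-null oil), 20 (TCDD against DMBA) and 24 (difference of responses). The shares of all genes called were, in that order, 0.837%, 23%, 39.1%, 9.5%, 3.62%, 11.5% and 7.32%.

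Leaving out each array in turn gave counts of 0 to 14 for BP, 0 to 5 for DMBA, 0 to 31 for TCDD, 1 to 54 for Cyp1b1-null oil, 0 to 49 for Cyp1b1-null DMBA, 1 to 62 for Cyp1a1-null oil, 0 to 5 for Cyp1a1-null BP, 0 to 13 for double-null oil, 0 to 0 for double-null BP, 0 to 25 for TCDD against DMBA and 0 to 42 for the difference of responses. Besides WT oil replicate 1, WT oil replicate 2 moved them: without it 6 were called for BP, 5 for DMBA, 17 for TCDD, 17 for Cyp1a1-null oil, 13 for double-null oil and 2 for the difference of responses. Without WT oil replicate 3 the counts were 9 for BP and 4 for TCDD. Without either Cyp1b1-null oil array 1 gene was called there, without Cyp1a1-null oil replicate 2 or 3 the counts were 2 and 1, without any one BP or TCDD array 0 (1 for TCDD against DMBA without WT TCDD replicate 3), and without Cyp1a1-null BP replicate 3 the count was 5.

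Replicate numbers are shared between groups but did not pair arrays (r of -0.24 to 0.34 over 21 pairs), and the replicate block called 1 gene for BP, 1 for TCDD, 14 for Cyp1b1-null oil and 13 for Cyp1a1-null oil, with 0 elsewhere.

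The sign turned with median centring for Rps4y2 (-0.35) and Rps27l (-0.78) in Cyp1b1-null oil, Rps18 (1.33) and Rps14 (1.35) in Cyp1b1-null DMBA, and Rpl10 (-0.62) and Rpl27a (-0.46) in Cyp1a1-null BP. It turned with Cy3 alone for Rpsa after BP (0.28), for Rps27l (-0.0596), Rps15 (0.29) and Rpl4 (0.11) in Cyp1b1-null oil, Rps18 (0.65) and Rps14 (0.71) in Cyp1b1-null DMBA, Rpl4 in Cyp1a1-null oil (0.34), Rpl27a in Cyp1a1-null BP (-0.12), Rpl22l1 (1.03) and Rps21 (0.16) in double-null oil, and Rpsa (-0.30) and Rpl24 (-0.45) in the difference of responses. Of these, Rpl22l1 and Rps21 were at the Cy3 ceiling on the double-null oil array. Rps18 and Rps14 were so on a Cyp1b1-null DMBA array, so the Cy3 values of these genes there are bounds. Slide as a random block turned Rpl27a in Cyp1a1-null BP (-0.0211), and slide as a fixed term or within the slide turned Rpl10 (-0.0012) and Rpl27a (-0.0889) there. The brightest probe never at the ceiling turned Rpl37 in Cyp1a1-null oil (0.0314) and Rpl22l1 in double-null oil (0.40).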
